A study of Mus musculus with 112 samples.

Results

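The aminoacyl-tRNA synthetases are the enzymes that join each amino acid to its transfer RNA, and the genes described here are the 31 of them that the arrays measured with a probe set of their own. They were chosen by name, as the genes whose symbol is 1 capital letter for the amino acid followed by ars, alone or with 1 or 2, out of 19938 genes that had a probe set with a single gene symbol. Of the 31, 16 end in 2 and code for mitochondrial enzymes, and 15 carry no number or 1 and code for cytosolic enzymes. Where a gene had several probe sets the brightest was used, which touched only Iars with 2 probe sets, and all 31 genes used the same probe set in every strain. Aars shared its probe set with another gene and was left out.

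RNA was measured in epididymal white adipose tissue (WAT) of 112 male mice, each on its own Affymetrix Mouse Gene 1.0 ST array. In each of 7 strains, 129S1/SvImJ, Balbc/J, C57BL6/J, CBA/J, C3H/HeJ, DBA/2J and B6C3F1/J, 8 mice were on caloric restriction (CR) and 8 on the control diet. All mice were housed singly, began their diet at 8 weeks of age and were killed at 22 weeks after an overnight fast, and the question was which transcripts CR changes and in which strains. B6C3F1/J is a first-generation hybrid and the other strains are inbred. The food allotment was not the same in every strain: by the study's methods the CR mice of Balbc/J received the allotment that served as the control diet of B6C3F1/J, DBA/2J, C3H/HeJ and CBA/J mice, and the CR mice of 129S1/SvImJ and C57BL6/J had theirs cut further midway. Strain and allotment can therefore not be told apart in a comparison between strains.

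Each synthetase recognises 1 amino acid and the transfer RNAs that match it, so together they supply the substrates of the ribosome. Animal cells need them in 2 places. The cytosolic enzymes serve the proteins coded in the nucleus, and several of them sit with scaffold proteins in the multisynthetase complex. The mitochondrial enzymes are coded by separate nuclear genes, are imported, and serve the small set of respiratory chain subunits coded by mitochondrial DNA. Gars and Kars are exceptions, since 1 gene gives both the cytosolic and the mitochondrial enzyme. In adipocytes mitochondria feed fatty acid and triacylglycerol metabolism, and several cytosolic synthetase genes are known targets of Atf4, the transcription factor of the amino acid response.

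RefSeq promoters (GRCm38.p6, 250 bases before to 50 after the transcription start) were matched for 22 of the 31 genes, 14 mitochondrial and 8 cytosolic, which gave 23 promoters because Aars2 has 2. They were searched on both strands for the C/EBP-ATF response element, TGATGNAA or its reverse complement TTNCATCA, which Atf4 binds with its partners, and for the ETS motif, CCGGAAG or CTTCCGG, which is common in promoters of nuclear genes for mitochondrial proteins. The response element was in 4 of the 23 promoters, against 3.97% of all 32851 promoters in the table, and the 4 were cytosolic genes, Gars, Tars, Yars and Iars, out of 8 cytosolic promoters, with none among the 15 mitochondrial promoters. The ETS motif was in 8 of the 23, 4 mitochondrial (Cars2, Mars2, Rars2 and Sars2) and 4 cytosolic (Gars, Kars, Mars1 and Sars), against 8.86% of all promoters. Gars was the 1 promoter with both, and there the motifs did not overlap. A match of letters is a description of the sequence and does not show binding. The stretches below show the response element in the 4 cytosolic genes and the ETS motif in Sars2 and Rars2, which are among the 4 synthetases with the largest change. Each runs 5′ to 3′ along the gene over 60 bases, with the motif in capitals.
Gars, chr6:55037941-55038000, plus strand: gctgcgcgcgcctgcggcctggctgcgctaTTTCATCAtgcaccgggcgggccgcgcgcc
Tars, chr15:11399659-11399718, minus strand: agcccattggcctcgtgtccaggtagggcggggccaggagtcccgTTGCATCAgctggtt
Yars, chr4:129189857-129189916, plus strand: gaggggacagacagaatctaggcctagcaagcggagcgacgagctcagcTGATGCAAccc
Iars, chr13:49682088-49682147, plus strand: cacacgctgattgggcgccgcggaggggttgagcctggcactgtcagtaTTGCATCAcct
Sars2, chr7:28741791-28741850, plus strand: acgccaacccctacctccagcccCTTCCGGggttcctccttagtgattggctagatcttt
Rars2, chr4:34614903-34614962, plus strand: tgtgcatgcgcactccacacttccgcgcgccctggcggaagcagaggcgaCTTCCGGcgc

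In Gars and Tars the element lay before the start, at -30 to -23 and at -15 to -8, and in Yars and Iars just after it, at 4 to 11 and at 8 to 15.

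The values are log2 signals after robust multi-array averaging (RMA), so that a difference of 1 is a doubling, and a signal cannot be compared between genes because each probe set has its own efficiency. Array medians lay between 6.72 and 6.86. As a rough guide to level, which is not a test of detection, 30 of 31 synthetases had a mean signal above the median gene of 7.17. Pars2 (prolyl-tRNA, mitochondrial) was below it at 6.90. The tissue carried its own markers, with a mean over 8 adipocyte markers between 12.3 and 12.6 in the 14 groups. By array that mean fell to 11.37 among CR mice of C57BL6/J and to 12.07 among CR mice of CBA/J. In the other groups no array was under 12.16. On 18 of the 112 arrays, 11 CR and 7 control, markers of the epididymis, which this fat pad adjoins, were high or the correlation with the other arrays of the group was low. They were 3 CR mice of C57BL6/J, 4 CR mice of CBA/J, 4 CR and 6 control mice of DBA/2J and 1 control mouse of B6C3F1/J. Results are given with them, and without them the numbers of genes called across strains were the same.

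CR was accompanied by higher signals of most synthetase genes of both compartments, by small amounts. Across the 7 strains, 14 of 16 mitochondrial and 13 of 15 cytosolic genes were higher under CR and none was lower (limma, mean of the 7 differences, Benjamini-Hochberg adjusted p under 0.05 over all genes). Over all genes 21.9% were called higher and 22% lower in the same test. At an unadjusted p under 0.05 the counts were 28 higher and 0 lower, beside 24.8% and 24.1% of all genes, and a two-way analysis of variance gave 14 mitochondrial and 13 cytosolic genes higher and 0 lower. The median log2 difference, CR minus control, was 0.18 over the mitochondrial genes and 0.13 over the cytosolic genes, beside 0.0076 over all genes. The sign was the same, higher under CR, in all 7 strains for 11 mitochondrial and 9 cytosolic genes, beside 12.7% of all genes higher and 10.6% lower in all 7.

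**Figure D1:**
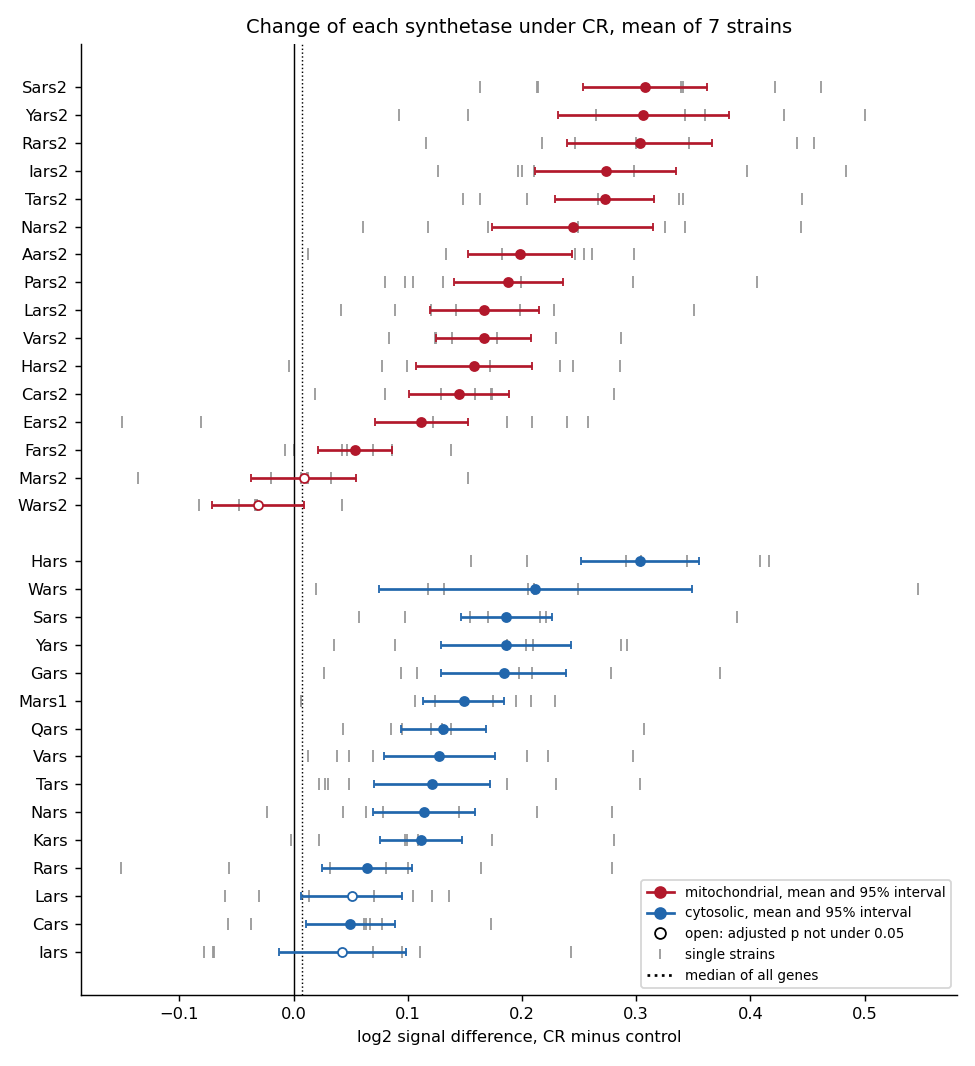
Log2 signal difference, CR minus control, of the 31 synthetase genes (x axis, in log2 units), mitochondrial genes in the upper block and cytosolic genes in the lower. Points are the mean of 7 strains with its 95% interval, grey ticks are the single strains, and open points are the 4 genes that did not pass the test. Sars2, Yars2, Rars2 and Hars lie near 0.3, and Wars2 is the single gene with a mean below 0.

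Among the mitochondrial enzymes the largest differences were in Sars2 (seryl-tRNA) at 0.31 ± 0.027 (SE), a 1.24-fold difference with adjusted p = 4.43e-18, Yars2 (tyrosyl-tRNA) at 0.31 ± 0.038 with adjusted p = 1.27e-11, and Rars2 (arginyl-tRNA) at 0.30 ± 0.032 with adjusted p = 1.76e-14. Iars2 (isoleucyl-tRNA) and Tars2 (threonyl-tRNA) followed at 0.27 each, and Nars2 (asparaginyl-tRNA) at 0.24. A middle group ran from Aars2 (alanyl-tRNA) at 0.20 and Pars2 at 0.19 through Lars2 (leucyl-tRNA) and Vars2 (valyl-tRNA) at 0.17 and Hars2 (histidyl-tRNA) at 0.16 to Cars2 (cysteinyl-tRNA) at 0.14. Ears2, which charges the glutamate transfer RNA and also places glutamate on that of glutamine, was at 0.11, and Fars2 (phenylalanyl-tRNA) at 0.05, both called higher. The 2 mitochondrial genes that did not pass were Mars2 (methionyl-tRNA) at 0.01, 95% interval -0.04 to 0.05, and Wars2 (tryptophanyl-tRNA) at -0.03, interval -0.07 to 0.01. Wars2 had the negative sign in 6 of 7 strains.

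Among the cytosolic enzymes Hars (histidyl-tRNA) stood first at 0.30 ± 0.026 (SE), with adjusted p = 6.54e-19. Wars (tryptophanyl-tRNA) followed at 0.21 with a standard error of 0.069, the widest of the 31 genes. Sars (seryl-tRNA) and Yars (tyrosyl-tRNA) were at 0.19 and Gars (glycyl-tRNA) at 0.18. Mars1 (methionyl-tRNA) at 0.15, Qars (glutaminyl-tRNA) and Vars (valyl-tRNA) at 0.13, Tars (threonyl-tRNA) at 0.12, and Nars (asparaginyl-tRNA) and Kars (lysyl-tRNA) at 0.11 came next. Rars (arginyl-tRNA) at 0.06 and Cars (cysteinyl-tRNA) at 0.05 were called with the smallest differences. Lars (leucyl-tRNA) was at 0.05 with adjusted p = 0.0542, interval 0.01 to 0.09, and Iars (isoleucyl-tRNA) at 0.04 with adjusted p = 0.228. Without Gars and Kars, which serve both compartments, 11 of 13 cytosolic genes were higher and their median was 0.13.

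The spread between mice shows what these small differences rest on. In B6C3F1/J the Sars2 signal was 7.41 in the lowest CR mouse, 7.72 at the median and 7.84 in the highest, against 7.11, 7.24 and 7.30 in control mice. All 8 CR mice lay above all 8 control mice, with a difference of 0.46 ± 0.058 (SE; limma, unadjusted p = 3.31e-07). In DBA/2J, where Sars2 differed least, the lowest, median and highest signals were 7.30, 7.43 and 7.52 in CR mice and 7.07, 7.27 and 7.43 in control mice. There 4 CR mice lay above every control mouse, the groups overlapped, and the difference of 0.16 had an unadjusted p of 0.00834.

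Yars2 showed the same contrast between these strains. In B6C3F1/J it was 7.76, 8.05 and 8.13 (lowest, median, highest) in CR mice and 7.34, 7.52 and 7.71 in control mice, with no overlap and a difference of 0.50 ± 0.060 (unadjusted p = 1.6e-07). In DBA/2J it was 7.42, 7.76 and 7.99 in CR mice and 7.36, 7.61 and 8.09 in control mice. The highest mouse there was a control, and the difference of 0.09 ± 0.10 did not pass (unadjusted p = 0.367).

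For Hars the B6C3F1/J signals were 8.32, 8.70 and 8.85 in CR mice and 8.05, 8.26 and 8.43 in control mice, a difference of 0.42 ± 0.068 (unadjusted p = 1.07e-05), with 7 of 8 CR mice above every control. In CBA/J they were 8.26, 8.62 and 8.90 in CR mice and 8.32, 8.43 and 8.56 in control mice. There 5 CR mice lay above and 1 below all controls, and the difference of 0.16 had an unadjusted p of 0.0675. Hars and Hars2 neighbour each other in the genome, and Hars2, at 0.16 across strains, differed less than Hars.

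Rars2 in B6C3F1/J was 8.42, 8.58 and 8.69 in CR mice and 8.01, 8.10 and 8.37 in control mice. The groups did not overlap, and the difference was 0.46 ± 0.055 (unadjusted p = 1.77e-07). In DBA/2J it was 8.09, 8.55 and 8.65 in CR mice and 7.95, 8.39 and 8.67 in control mice, where no CR mouse was above all controls and the difference of 0.12 did not pass (unadjusted p = 0.272).

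**Figure D2:**
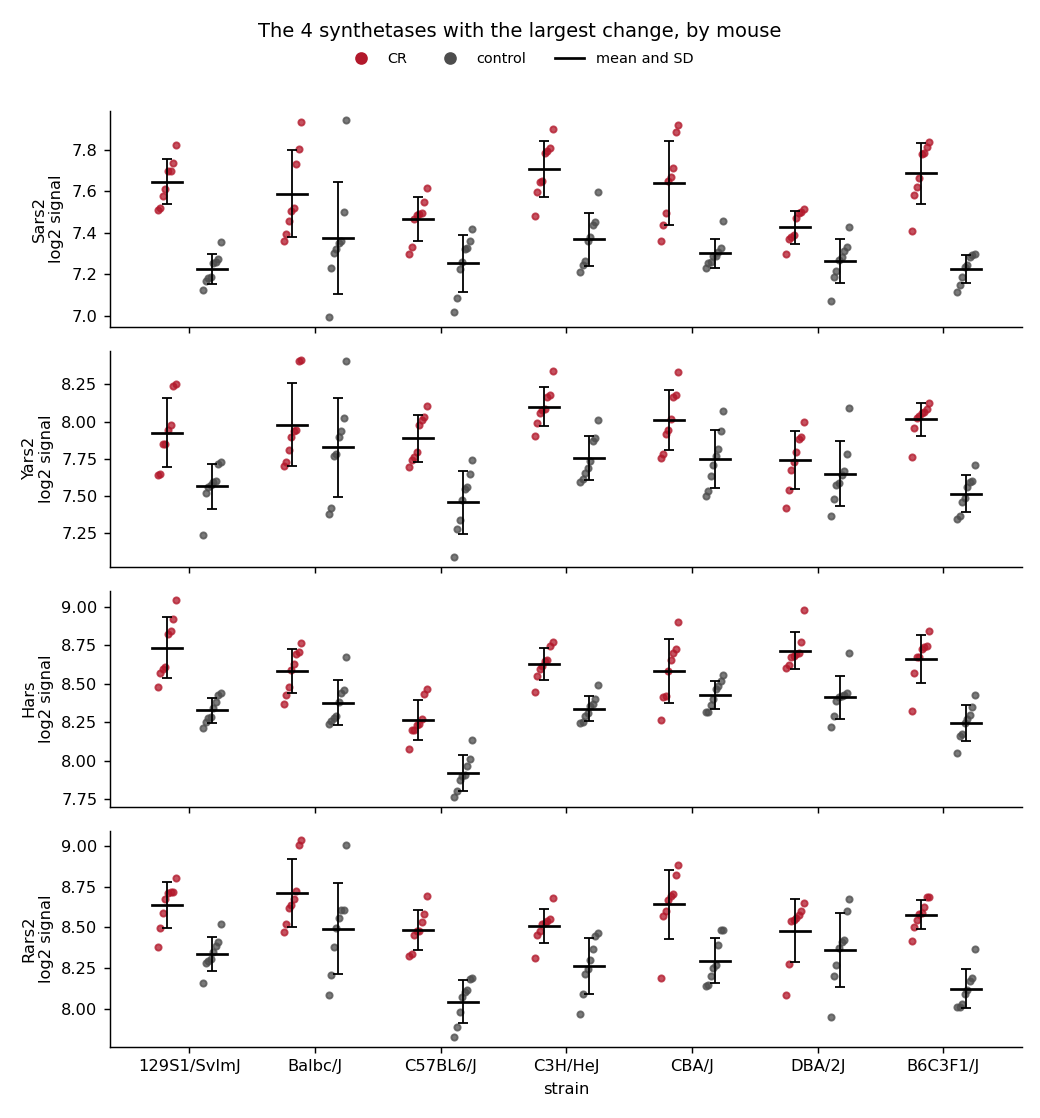
Log2 signals (y axis) of Sars2, Yars2, Hars and Rars2 in each mouse of the 7 strains (x axis), CR in red to the left of control in grey, with 8 mice per group and the mean and SD in black. In B6C3F1/J the CR mice of Sars2, Yars2 and Rars2 lie wholly above the control mice, and in Balbc/J and DBA/2J the groups overlap for all 4 genes.

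The number of synthetases called differed widely from strain to strain. Within strains, at the unadjusted p under 0.01 of limma on the 16 arrays of the strain, no synthetase was called lower in any strain, and the same was so for a Welch test and for the methods' t-test on raw signals. In B6C3F1/J, 13 mitochondrial and 9 cytosolic genes were higher, beside 16.5% of all genes called higher and 14.4% lower. In C3H/HeJ, 11 mitochondrial and 7 cytosolic genes were higher, beside 9.26% of all genes higher and 7.44% lower. In C57BL6/J the counts were 8 mitochondrial and 9 cytosolic, beside 9.8% higher and 7.82% lower. In 129S1/SvImJ they were 8 and 7, beside 14.4% higher and 14.2% lower. In CBA/J they were 7 and 5, beside 8.52% higher and 12.3% lower.

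DBA/2J and Balbc/J stood at the other end. In DBA/2J only Sars2 and Hars were called, beside 3.15% of all genes higher and 2.88% lower. Of this strain 4 CR and 6 control arrays stood apart by epididymis markers or correlation, more than in any other strain. In Balbc/J no synthetase was called by limma, beside 0.627% of all genes higher and 0.958% lower, and a Welch test and the methods' t-test also called 0. At an unadjusted p under 0.05, 2 synthetases were higher and 1 lower in Balbc/J, beside 4.15% and 3.38% of all genes. In DBA/2J 6 were higher and 0 lower, beside 8.07% and 7.07%, and in B6C3F1/J 24 were higher and 0 lower, beside 21.1% and 22%. The 1 lower in Balbc/J was Ears2, and Rars in CBA/J and Mars2 in C57BL6/J were also lower at that looser threshold. When the strain effects were taken from the 14-group model, whose spread is shared by all strains, 5 synthetases were called in Balbc/J, 1 of them lower, beside 4.25% of all genes higher and 1.4% lower. In CBA/J that model called 17, 1 of them lower, beside 9.71% higher and 13.6% lower. By the within-strain test DBA/2J and Balbc/J also had the lowest shares of all genes called.

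The median difference over the synthetases was nonetheless above that of all genes in every strain. It was 0.32 over the mitochondrial and 0.17 over the cytosolic genes in B6C3F1/J (all genes -0.032), 0.22 and 0.12 in CBA/J (all genes 0.041), 0.20 and 0.13 in C3H/HeJ (all genes -0.0015), and 0.21 and 0.24 in C57BL6/J (all genes -0.033). It was 0.15 and 0.14 in 129S1/SvImJ (all genes 0.058), 0.12 and 0.04 in DBA/2J (all genes 0.024), and 0.12 and 0.08 in Balbc/J (all genes -0.016). In Balbc/J, where none passed the test, 26 of the 31 differences were positive, and in B6C3F1/J all 31 were.

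Complete separation of the groups was seen mostly in B6C3F1/J. All 8 CR mice lay above all 8 control mice for 15 synthetases in B6C3F1/J, beside 6.95% of all genes, 4 in C57BL6/J beside 2.62%, 3 in 129S1/SvImJ beside 3.42% and 1 in C3H/HeJ beside 1.85%. There were none in CBA/J, DBA/2J and Balbc/J, where 1.39%, 0.0702% and 0.00502% of all genes separated. The 4 in C57BL6/J were Rars2 and the cytosolic Sars, Qars and Vars. The 3 in 129S1/SvImJ were Sars2, Tars2 and Hars, and the 1 in C3H/HeJ was Aars2, which codes for the mitochondrial alanyl-tRNA synthetase and differed by only 0.01 in C57BL6/J.

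**Figure D3:**
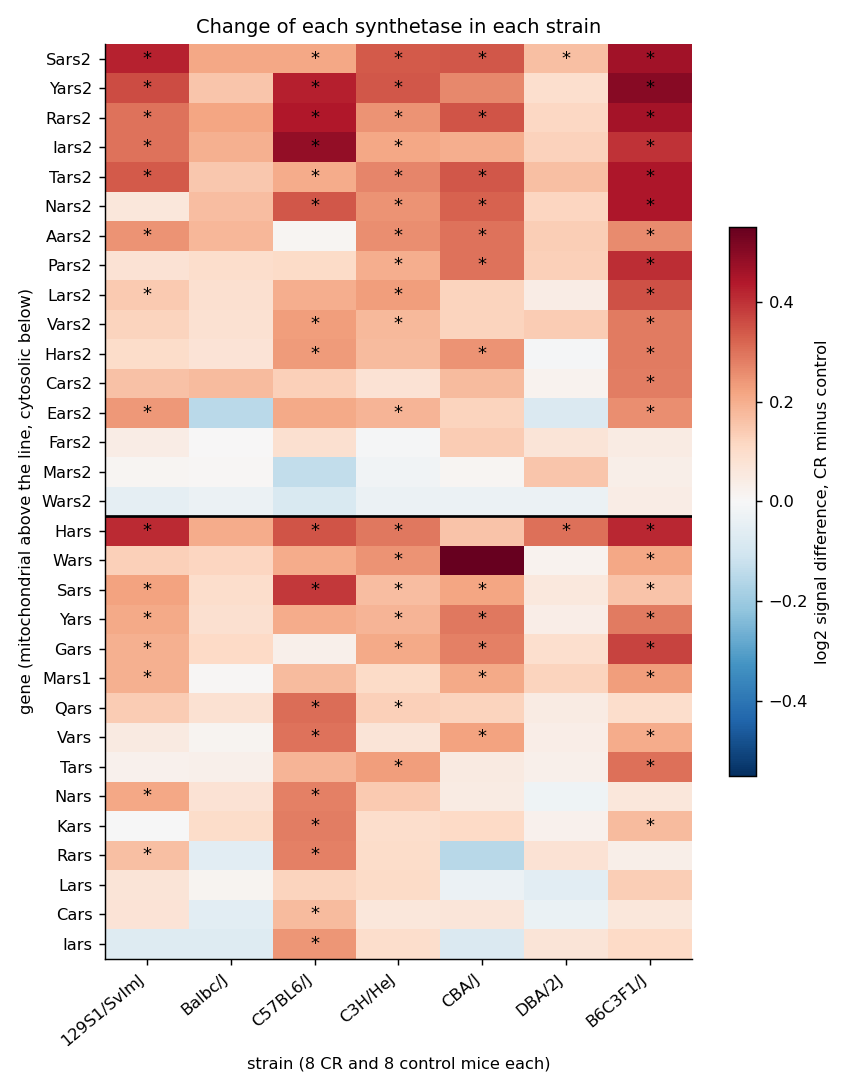
Log2 signal difference, CR minus control, of each synthetase gene (rows, mitochondrial above the black line) in each strain (columns, 8 CR and 8 control mice each), from blue (lower) to red (higher), with a star where the unadjusted p was under 0.01. The Balbc/J column holds no star and the DBA/2J column 2, and the rows of Mars2, Wars2, Fars2 and Lars hold none.

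The mitochondrial enzymes differed by somewhat more than the cytosolic ones, though not in every strain. The median over mitochondrial genes minus that over cytosolic genes was 0.05 across strains, 0.14 in B6C3F1/J, 0.10 in CBA/J, 0.08 in DBA/2J and C3H/HeJ, 0.04 in Balbc/J and 0.01 in 129S1/SvImJ, and it was -0.04 in C57BL6/J. The standard deviation of these 7 values was 0.059, larger than the difference across strains. The direction in C57BL6/J was thus opposite to that in the other 6 strains, and the cytosolic Sars at 0.39, Qars and Vars were the cytosolic genes without overlap there.

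Both forms were measured for 12 amino acids, which allows a comparison of 2 enzymes for the same amino acid in the same mice. The mitochondrial gene had the larger log2 difference for 9 of the 12, and the 95% interval of the difference between the 2 changes lay above 0 for 8, below 0 for 3 and across 0 for 1. It was 0.24 ± 0.031 (SE) for arginine (Rars2 0.30, Rars 0.06) and 0.23 ± 0.039 for isoleucine (Iars2 0.27, Iars 0.04). Threonine at 0.15, asparagine at 0.13, serine, tyrosine and leucine at 0.12, and cysteine at 0.10 had intervals above 0. For valine it was 0.04, interval -0.03 to 0.11. The cytosolic gene had the larger difference for tryptophan (-0.24 ± 0.073), histidine (-0.15 ± 0.028) and methionine (-0.14 ± 0.024). The sign was positive in all 7 strains for arginine, isoleucine, leucine and threonine, and negative in all 7 for tryptophan. In C57BL6/J the tryptophan sign rested on 1 CR mouse with a Wars signal of 11.44, against 9.23 in the next. The difference there was -0.29 with all mice and 0.0018 without it, and across strains it was -0.17, interval -0.27 to -0.07, without that mouse and a CBA/J one.

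**Figure D4:**
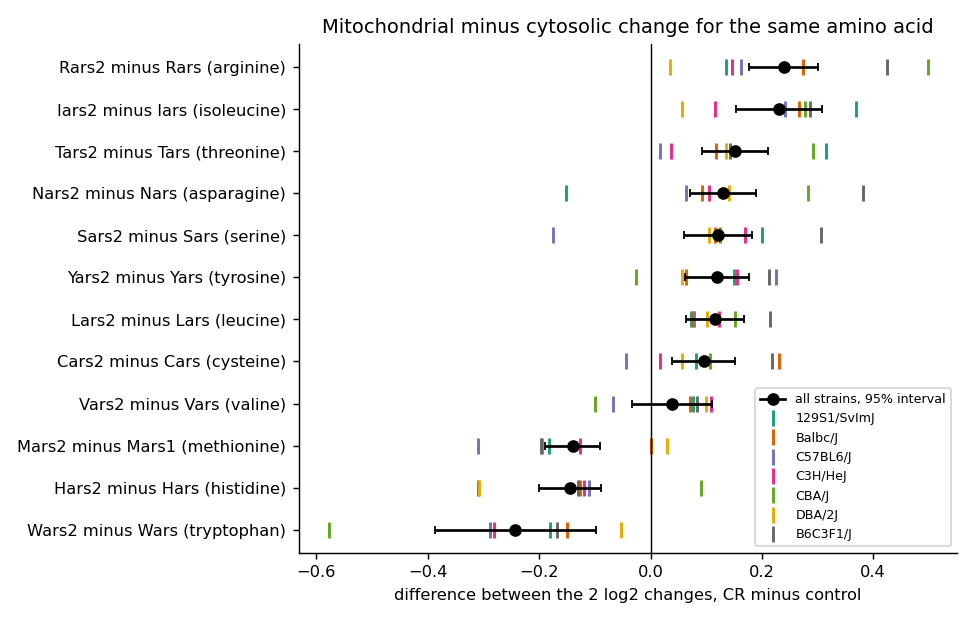
Difference between the log2 change (CR minus control) of the mitochondrial gene and that of the cytosolic gene for the same amino acid (x axis), 12 amino acids in order of size. Black points are the mean of 7 strains with its 95% interval and coloured ticks are the strains. Arginine and isoleucine lie highest, at 0.24 and 0.23, and tryptophan lowest, at -0.24.

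The limma F-test of the 7 strain effects called 7 of the 31 synthetases, Ears2, Rars, Sars, Kars, Pars2, Tars2 and Nars, at an adjusted p under 0.05, beside 19% of all genes. In this fit the count is near that background, so that there it says nothing particular to the family. With array weights it was 22, beside 38.5% of all genes. It was 11 with the replicate block and without Balbc/J, beside 20.8% and 20.9%, and 11 with dim genes left out, beside 35.8%. The count thus stood near its background in some settings and above it in others. Ears2 had the smallest adjusted p among the synthetases, 5.02e-06. In B6C3F1/J it was 7.26, 7.33 and 7.43 in CR mice and 6.95, 7.08 and 7.19 in control mice, with no overlap and a difference of 0.26 ± 0.042 (unadjusted p = 1.16e-05). In Balbc/J the order was the other way, with 7.14, 7.26 and 7.42 in CR mice and 7.24, 7.44 and 7.58 in control mice, 3 CR mice below all controls, and a difference of -0.15 (unadjusted p = 0.024, adjusted p = 0.651). In DBA/2J Ears2 was 7.10, 7.22 and 7.30 in CR mice and 7.12, 7.30 and 7.42 in control mice, a difference of -0.08 that did not pass (unadjusted p = 0.141).

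Set against the mean of the other strains, the Balbc/J effect was lower by 0.31 for Ears2 (adjusted p = 0.000275) and by 0.17 for Mars1 (adjusted p = 0.0483), and these 2 were called beside 3.25% of all genes. Mars1 was 9.21 in CR mice and 9.20 in control mice of Balbc/J on average, against a difference of 0.15 across strains. When each replicate number was left out in turn, 1 mouse of each group, Ears2 was called in 8 of 8 such fits and Mars1 in 2 of 8. Mars1 also lost its call when the arrays were centred on their medians (adjusted p = 0.104).

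Rars, the cytosolic arginyl-tRNA synthetase, had an adjusted p of 9.01e-05 in the F-test. In C57BL6/J it was 9.71, 9.82 and 10.07 in CR mice and 9.45, 9.53 and 9.72 in control mice, a difference of 0.28 ± 0.059 (unadjusted p = 0.000182), with 7 of 8 CR mice above every control. In B6C3F1/J it was 9.86, 10.03 and 10.12 in CR mice and 9.83, 9.95 and 10.13 in control mice, nearly the same range, with a difference of 0.03 (unadjusted p = 0.537). In CBA/J it was 9.68, 9.83 and 9.97 in CR mice and 9.75, 9.98 and 10.17 in control mice, and the difference of -0.15 had an unadjusted p of 0.0292. The Rars2 difference was positive in all 7 strains, and its own F-test did not pass (adjusted p = 0.16).

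In the F-test without each replicate number in turn, Ears2 and Rars were called in 8 of 8 fits, Sars in 7, Kars in 6, Pars2 in 4, Tars2 in 3 and Nars in 2. These last 5 genes had mostly positive differences of unequal size. Sars reached 0.39, Kars 0.28 and Nars 0.28 in C57BL6/J, each its largest difference, while Pars2 at 0.41 and Tars2 at 0.45 were largest in B6C3F1/J. The smallest were 0.06 for Sars and -0.02 for Nars in DBA/2J, a value near 0 for Kars in 129S1/SvImJ, 0.08 for Pars2 in 129S1/SvImJ and 0.15 for Tars2 in Balbc/J.

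Wars, the cytosolic tryptophanyl-tRNA synthetase and a known interferon-induced gene, was the most variable of the set, and it was looked at more closely after its values were seen. In CBA/J it was 9.31, 9.46 and 11.40 in CR mice and 9.07, 9.17 and 9.35 in control mice. In C57BL6/J it was 8.87, 9.02 and 11.44 in CR mice and 8.79, 9.25 and 9.42 in control mice. In each strain 1 CR mouse was far above the rest. These 2 arrays were also those with the highest mean over 9 epididymis markers of all 112, at 11.3 and 11.4, where the median over the 107 arrays beyond the 5 highest was 5.15. The part of other tissue in the Wars signal was not tested. Without that mouse the Wars difference was 0.31 in CBA/J (limma, unadjusted p = 0.00158) and -0.09 in C57BL6/J (limma, unadjusted p = 0.346). With it the difference was 0.55 in CBA/J (limma, unadjusted p = 0.0278) and 0.21 in C57BL6/J (limma, unadjusted p = 0.481). Without all 18 arrays that stand apart the difference across strains was 0.18, adjusted p = 3.2e-05. In B6C3F1/J and C3H/HeJ, which have 1 such array between them, the difference was 0.21 and 0.25, both called. The highest C3H/HeJ CR mouse had Wars at 10.03 and an epididymis marker mean of 4.89.

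The same C57BL6/J mouse was the lowest for Iars2, which was 9.02, 9.93 and 10.10 in CR mice and 9.24, 9.34 and 9.53 in control mice. The other 7 CR mice lay above all controls. The difference was 0.48 with that mouse (limma, unadjusted p = 0.000616) and 0.60 without it (limma, unadjusted p = 1.84e-09). Over the 31 genes that array was above its group median for 12, so it was not uniformly high or low.

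**Figure D5:**
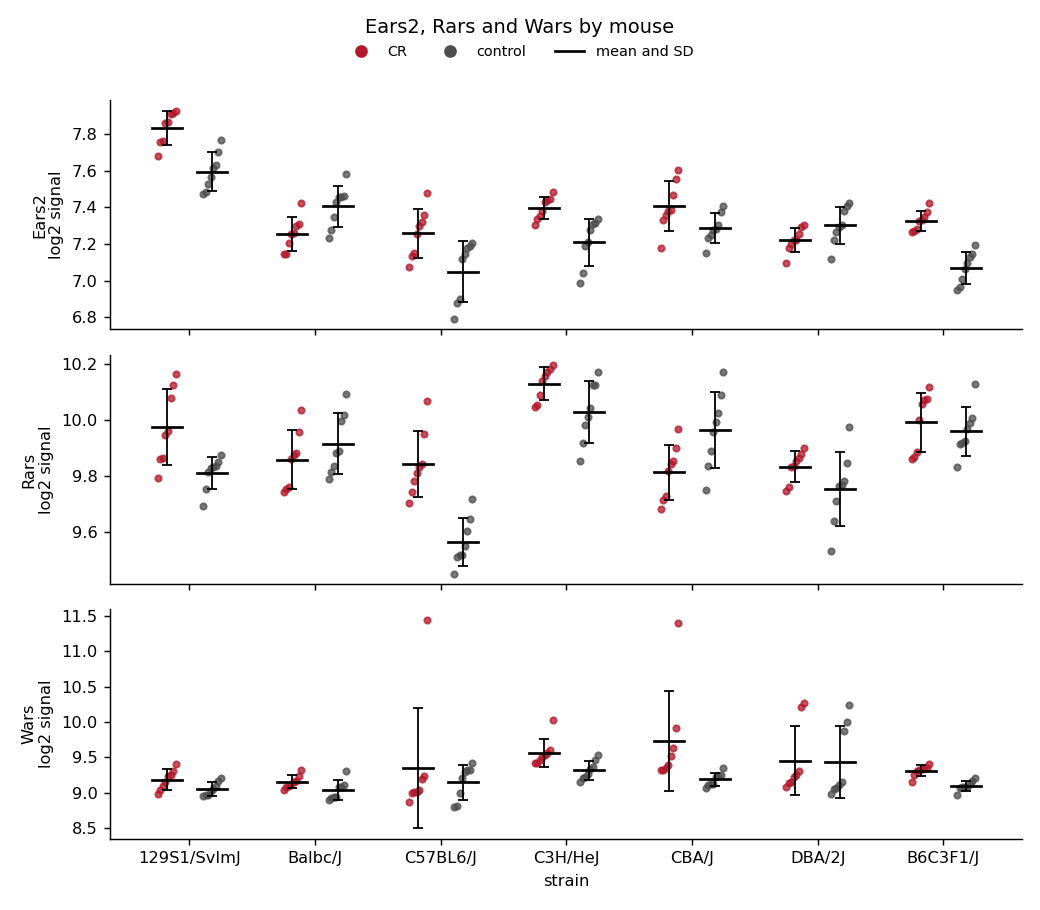
Log2 signals (y axis) of Ears2, Rars and Wars in each mouse of the 7 strains (x axis), CR in red to the left of control in grey, with 8 mice per group and the mean and SD in black. Ears2 is higher under CR in B6C3F1/J with no overlap and lower on average in Balbc/J, and Wars has a single CR mouse at 11.4 in C57BL6/J and in CBA/J.

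The strains also differed in the level of the synthetases on the control diet. Among control mice, killed at the same age as the CR mice, the F-test between the 7 strains called 27 of the 31 genes, 14 mitochondrial and 13 cytosolic, beside 56.6% of all genes. Qars, Wars, Pars2 and Sars2 did not pass. Kars had the smallest adjusted p, 4.61e-20. It was 8.41, 8.63 and 8.82 in control mice of Balbc/J, the highest strain, and 7.80, 8.04 and 8.22 in those of C57BL6/J, the lowest, with no overlap. Ears2 followed with adjusted p = 2.17e-16, at 7.47, 7.59 and 7.77 in control mice of 129S1/SvImJ and 6.79, 7.13 and 7.20 in those of C57BL6/J, again with no overlap. The distance between the highest and lowest strain mean was 0.60 for Kars and 0.55 for Ears2, larger than their CR differences across strains of 0.11 each. Sequence differences between strains under the probes and differences in RNA cannot be told apart on these arrays, nor can strain and allotment, since by the study's methods control mice of Balbc/J were given more food than those of B6C3F1/J, DBA/2J, C3H/HeJ and CBA/J.

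Most genes that work beside the synthetases in charging and in mitochondrial translation were higher under CR as well, and those of the cytosolic ribosome were not. Of the synthetases whose names fall outside the pattern, all 4 were higher, Farsb at 0.21 and Farsa at 0.06 (the subunits of the cytosolic phenylalanyl-tRNA synthetase), Tarsl2 at 0.17 (a second threonyl-tRNA synthetase) and Eprs at 0.16 (the joined glutamyl- and prolyl-tRNA synthetase). Of the scaffolds of the multisynthetase complex, Aimp1 at 0.17 and Aimp2 at 0.13 were higher, and Eef1e1 at 0.06 did not pass (adjusted p = 0.15). Mitochondria make glutaminyl-tRNA by converting the product of Ears2, and the 3 subunits of the enzyme that does so, Gatb at 0.29, Gatc at 0.26 and Qrsl1 at 0.20, were higher, while Mtfmt, which formylates the initiator methionyl-tRNA charged by Mars2, was at 0.05 with adjusted p = 0.12.

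All 9 mitochondrial translation factors were higher, led by the elongation factors Gfm1 at 0.50 and Tufm at 0.44, and 7 of 8 genes of mitochondrial tRNA maturation, led by Mto1 at 0.34 and Hsd17b10 at 0.29. Of the mitochondrial ribosome 74 of 77 genes were higher and 0 lower, with a median of 0.24, Mrps22 at 0.69 and Mrpl50 at 0.54. The cytosolic ribosome had no such shift, with 11 of 53 genes higher, among them Rps19 at 0.19 and Rpl24 at 0.11, 8 lower, among them Rpl12 at -0.13 and Rps28 at -0.11, and a median of -0.00091. Of 5 cytosolic elongation genes, Eif5a was higher at 0.30, Eef2 at -0.07 and Eef1a1 at -0.04 were lower. The cytosolic synthetases had a median of 0.13, beside 0.11 for mitochondrial tRNA maturation and 0.20 for the mitochondrial translation factors.

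The amino acid response genes, which Atf4 induces when amino acids run short, moved in both directions. Atf4 itself was lower under CR by 0.24 (adjusted p = 2.6e-15), and of 29 genes of the amino acid response 7 were higher, 11 lower and 11 not called, with a median of -0.06. Atf3, a stress-induced transcription factor, fell by 1.13 and Sesn2, a sensor of leucine, by 0.82, while Psph of serine synthesis was higher at 0.38 and Mthfd2 of mitochondrial folate metabolism at 0.27. Of the 4 synthetases with the response element in the promoter, Yars (0.19), Gars (0.18) and Tars (0.12) were higher and Iars (0.04) did not pass. Of the 8 with the ETS motif, Mars2 at 0.01 did not pass and the other 7 were higher, from 0.11 for Kars to 0.31 for Sars2. Over all 31 synthetases 27 were higher, so these counts say nothing particular to the genes with either motif.

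WAT holds several cell types, and in bulk tissue fewer cells of a type and less RNA per cell cannot be told apart. Macrophage markers were lower under CR for 13 of 14 genes, with a median of -0.77, none higher and Cd163 not called. The mean over the 14 genes ranged from 8.11 to 10.03 over CR mice and from 8.58 to 10.996 over control mice. The CR minus control difference of that mean was -1.55 in CBA/J, -1.47 in B6C3F1/J, -0.85 in 129S1/SvImJ, -0.80 in C3H/HeJ, -0.69 in C57BL6/J, -0.47 in DBA/2J and -0.07 in Balbc/J. In the same order of strains, 12, 22, 15, 18, 17, 2 and 0 synthetases were called higher within the strain. Beside them 8.52%, 16.5%, 14.4%, 9.26%, 9.8%, 3.15% and 0.627% of all genes were called higher. Of 8 adipocyte markers 2 were higher, 2 lower and 4 not called. The part of the cell mixture in the synthetase differences was not tested.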

How the data were processed

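The authors deposited log2 signals per probe set for 112 arrays, made from Affymetrix Mouse Gene 1.0 ST scans with robust multi-array averaging (RMA) in Expression Console of Affymetrix, that is, background correction, scaling of all arrays to 1 distribution and a summary over the probes. Such signals are relative and tend to understate fold changes. The software version and genome build are not given in the sources used here. Per the labels, each array is 1 mouse, and the groups of strain and diet come from the labels.

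Of 35556 probe sets, 21789 carried a single gene symbol, which gave 19938 genes, the brightest probe set being kept for the 999 genes with several. Across strains, limma 3.58.1 (R 4.3.3) was fitted to 14 group means, and the mean of the 7 differences CR minus control, an F-test between strains, Balbc/J against the other strains and an F-test between control groups were each adjusted by Benjamini-Hochberg over all genes and called at 0.05. Within strains, limma on 16 arrays was called at the study's threshold, an unadjusted p under 0.01. Pairs of enzymes were compared by the same model on the difference of the 2 log2 signals per array. Arrays were taken to stand apart where the epididymis marker mean, or the median correlation with the group, lay over 3 median absolute deviations out. Tests of CR across strains and within a strain, the F-test between strains and Balbc/J against the others were tried on simulated data. The number of arrays limits the precision, and no depth applies.

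The genes described, the gene lists and the tests were chosen with earlier results of these data known. Values by mouse are given for the 4 largest called changes in each direction (no gene was called lower), the 2 smallest p of each test between strains, and a few genes named after their values were seen (Wars, Iars2, Ears2 in Balbc/J, Rars in CBA/J). Of other lists up to 4 genes are named. Settings varied were normalization, array weights, variance trend, probe set rule, a filter on dim genes, the test, the replicate number as a block, and leaving out strains, replicates or arrays that stand apart. Promoters are RefSeq sequences (GRCm38.p6), and Python 3.11.15 with matplotlib 3.10.9 was used for motifs and figures.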

Additional observations from a re-analysis of the deposited data

Results flagged for a closer look

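In 38 groups of 8 mice whose values are given by mouse, Dixon's test of the most distant mouse passed its 95% critical value in 4. The Wars and Iars2 groups were picked after their values were seen. That count can therefore not be set against the chance rate of about 1 in 20. Over all 434 groups of the 31 synthetases the test passed in 42, or 9.68%. The 4 were a CR mouse of C57BL6/J with Wars at 11.44 (next mouse 9.23), a CR mouse of CBA/J with Wars at 11.40 (next 9.92), the same C57BL6/J mouse with Iars2 at 9.02 (next 9.81), and a CR mouse of B6C3F1/J with Yars2 at 7.76 (next 7.96). The Wars and Iars2 mice are the arrays with the highest epididymis marker means, 11.4 and 11.3, and the part of other tissue was not tested. Without each of them the values are given with Wars and Iars2 above.

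The CR difference varied between strains, by the limma F-test with Benjamini-Hochberg adjusted p, for Ears2 (5.02e-06), Rars (9.01e-05), Sars (0.0118), Kars (0.0147), Pars2 (0.0186), Tars2 (0.0242) and Nars (0.0433). These genes were called beside 19% of all genes. Without each replicate number in turn, Ears2 and Rars kept that call in 8 of 8 fits, Sars in 7 and Kars in 6. Pars2 kept it in 4, Tars2 in 3 and Nars in 2. The Balbc/J difference minus the mean of the other strains was -0.31 for Ears2 and -0.17 for Mars1, beside 3.25% of all genes called. In the same refits Ears2 kept the Balbc/J call in 8 of 8 and Mars1 in 2 of 8. Balbc/J mice had a food allotment of their own, so strain and allotment cannot be told apart.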

How the results depend on the processing

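The counts called across strains (14 mitochondrial and 13 cytosolic genes higher, 0 lower) stayed within 1.5 times the main count in every setting tried, at 14 mitochondrial and 12 to 14 cytosolic genes without each replicate number in turn or with the replicate number as a block. Of 557 fits of single genes across strains under other settings, 545 kept direction and side of the threshold, 7 brought Lars past the threshold, 4 took Cars out of it, and Mars2, never called, ranged from -0.012 to 0.017 without each replicate number in turn. The number of synthetases whose effect differed between strains was 7 (19% of all genes), and 22 with array weights (38.5%), 11 with dim genes left out (35.8%), 11 with the replicate block (20.8%), 11 without Balbc/J (20.9%), and 4 to 10 without each replicate number (12.5% to 16.8%). For Balbc/J against the others it was 2 (3.25% of all genes), and 1 after centring on the median (2.92%), 1 with the replicate block (3.52%), and 1 to 2 without each replicate number.

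Within strains, Balbc/J had 0 called, and 5 with the 14-group model, 5 with array weights (7.54% of all genes), 2 with the replicate block (4.02%) and 0 to 2 without each replicate number. DBA/2J had 2, and 1 at an adjusted p under 0.05, 1 after centring, 1 with the replicate block (4.91% of all genes), 4 with array weights (12.7%) and 1 to 3 without each replicate number. Without each replicate number the range was 11 to 17 in C57BL6/J, 11 to 17 in C3H/HeJ and 7 to 16 in CBA/J. Where no share of all genes stands beside a within-strain count, the count cannot show anything particular to the synthetases. Wars in C57BL6/J turned to -0.094 without 1 CR mouse, and the tryptophan pair there turned to 0.0018 without it and 0.012 without the arrays that stand apart, settings chosen after the data were seen. The causes were not tested.

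Replicate numbers are shared by the groups, but same-numbered CR and control mice of a strain did not in general deviate together. The median correlation was 0.026, with a range from -0.36 to 0.55 and 18 of 56 pairs above 0.1. The block is therefore an alternative only. It changed no count of the CR effect across strains by over 1.5 times, while the counts of the tests between strains changed by more, as given above. The differences between strains among control mice could not be fitted with the block. Scaling moved the median of all genes by little (0.014 after quantile normalization, 0.021 after centring). Each group holds 8 mice, which limits what single strains can show.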

Other observations

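Across strains, the other cell type lists had a smaller median change under CR than the macrophage markers. This was not so in every strain. In Balbc/J the mean over fibroblast and progenitor markers differed by -0.16 and that over macrophage markers by -0.07. Of 5 fibroblast and progenitor markers 3 were lower across strains, Dpt (dermatopontin) at -0.57, Pdgfra at -0.32 and Pi16 at -0.12, and of 5 endothelial markers 3 were lower, Tek at -0.24, Cdh5 at -0.16 and Pecam1 at -0.13. Of 5 mast cell markers Mcpt4 at -0.36, Cpa3 at -0.28 and Cma1 at -0.12 were lower and Kit at 0.21 higher. Cd2 at -0.21 was the 1 of 5 T cell markers called, 0 of 4 B cell markers were called, and Krt19 at 0.28 was the 1 of 5 mesothelial markers called. The difference of the mean over the 5 mesothelial markers ran from -0.84 in 129S1/SvImJ to 0.54 in B6C3F1/J. Of 9 epididymis markers Adam7 at 0.67 and Lcn5 at 0.60 were higher, with a positive difference in 4 and 3 strains. The difference of the mean over the 9 was 1.49 in C57BL6/J and 1.38 in CBA/J, where the highest CR array reached 11.4 and 11.3. In the other strains it lay between -0.22 in DBA/2J and 0.19 in 129S1/SvImJ. The 1 red blood cell marker measured, Alas2 at -0.13, did not pass.

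Wars was also high in DBA/2J, where 2 CR mice had 10.26 and 10.21 and 3 control mice 10.23, 9.99 and 9.87. The CR mice had epididymis marker means of 5.41 and 7.51, where the median over most arrays was 5.15. The control mouse at 10.23 had 7.46, the one at 9.99 had 10.5, the third highest of all arrays, and the one at 9.87 had 5.08. Another DBA/2J CR mouse, with a marker mean of 8.43, had Wars at 9.08, below its group median.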
